A study of Cordyceps militaris with 6 samples.

Results

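On scaffold NW_006271973.1 of the Cordyceps militaris CM01 genome, 3490 of the 134783 sites in the authors' table of sequence variants lie between positions 69686 and 598030. This stretch of 528345 bp was chosen by the read shares of its sites, many of which held reads of both alleles in the later libraries. Those read shares are therefore given as a description, without a test. It holds 161 annotated genes named at its sites, of 10385 genes in the expression table, and 155 of them have a site inside the gene. Of the sites, 3338 are single nucleotide variants, 80 are deletions and 72 are insertions.

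The series followed the YCC strain of C. militaris, an ascomycete cultivated for its fruiting bodies, through serial subculture, and its stated aim is to describe how the transcriptome diverges as a culture degenerates. The groups were passages 1, 2, 3, 4, 5 and 6 of that strain, each represented by 1 poly(A) RNA library from mycelium grown for 72 h in the dark. All passages shared strain, medium and culture time, and no treatment or mutant was included. With 1 library per passage and 1 lineage, no passage had a replicate, and neighbouring passages may depend on each other. Total expected counts ran from 9740171 to 13813999 per library.

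Mycelium of a filamentous ascomycete is a network in which many nuclei can share cytoplasm. A haploid culture grown from a single nucleus type carries 1 allele at each position, while a mycelium with several nucleus types can carry more. In heterothallic species such as C. militaris a culture of 1 mating type carries either the MAT1-1 or the MAT1-2 form of the mating-type locus. The sequences on both sides of that locus, among them the genes for the endocytic actin regulator Sla2 and a DNA lyase, are shared by both forms. The CM01 reference carries the MAT1-1 form, and this locus lies inside the stretch.

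Variant sites were denser in the stretch than elsewhere, with 6.61 sites per kb, against 4.18 per kb outside it (measured to the last listed site of each scaffold). The stretch was chosen for sites with 2 alleles, so its count includes sites where only 1 of them differs from CM01. Of its 1424 sites with at least 10 reads in every library, 469 had at most 10% alternative reads in passage 1 and at least 10% later. How much of the higher density came from such sites was not tested. Of the 3490 sites, 2095 were exonic, 233 intronic, 5 at splice sites, 352 intergenic and the others upstream or downstream of genes. A site was called mixed in a library when it had at least 10 reads and each allele held at least 10% of them. By that measure 20 of 1737 covered sites (1.15%) were mixed in passage 1. Passages 2 and 3 had 974 of 2057 (47.4%) and 489 of 1857 (26.3%). In passages 4, 5 and 6 the shares were 45.6%, 47.9% and 41.2%. Passage 1 was thus nearly free of mixed sites and passage 3 had the fewest among the later libraries.

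On the rest of the same scaffold, 1.07% to 1.37% of covered sites were mixed in every library, with 1.13% in passage 1. Over the rest of the variant table the share was 2.19% to 3.52% in later passages and 0.799% in passage 1. That remainder includes sites of scaffolds NW_006271974.1 and NW_006271975.1, where 716 of 6422 and 1045 of 5348 covered sites were mixed in at least 3 later libraries. In the stretch these were 771 of 1424. Both scaffolds were counted whole, while the stretch was cut out for its mixed sites, so these shares do not compare like parts.

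**Figure D1:**
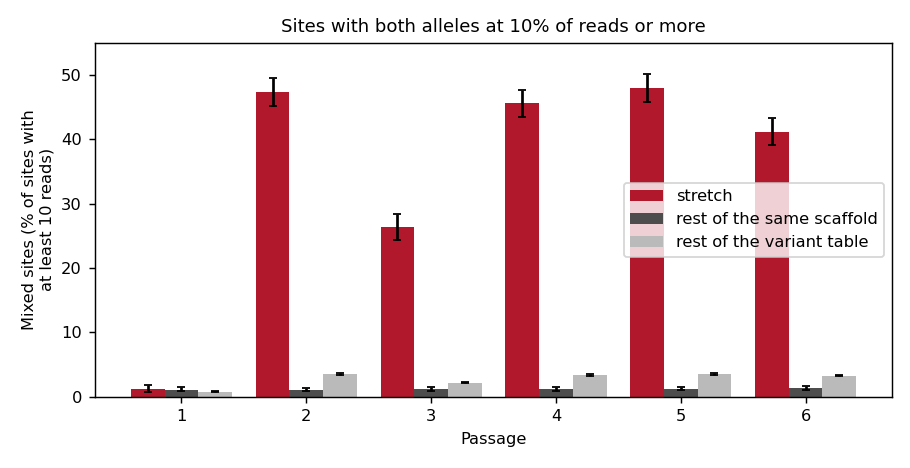
Percent of sites with at least 10 reads that were mixed (each allele at least 10% of reads) in each passage, for the stretch, the rest of its scaffold and the rest of the variant table. Bars are single libraries and whiskers are 95% Wilson intervals of counting error; the stretch stands at 47.4%, 26.3%, 45.6%, 47.9% and 41.2% in passages 2 to 6, and at 1.15% in passage 1.

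At the start, sites 69265 (unmixed) and 69675 (mixed) were neighbours among the sites covered in every library. At the end no such site lay between 598030 and 634355, so that edge is not placed more closely. At the first member, position 69686, downstream of the SET domain gene CCM_06423 and next to the RRM domain gene CCM_06424, the reference base had 1 of 80 reads in passage 1. In passages 2 to 6 it had 48 of 105, 17 of 79, 103 of 126, 53 of 92 and 120 of 145 reads. The site just outside, 69675, was mixed in the same way, with 48 reference and 52 alternative reads in passage 2 and 109 reference and 19 alternative reads in passage 6. The next covered site outward, 69265 in CCM_06423, had 1 reference read over the 6 libraries. The last member, 598030, lies in CCM_06584, which encodes a cytidine deaminase-like protein. There the reference base had 0 of 24 reads in passage 1 and 26 of 37, 4 of 36, 47 of 59, 22 of 47 and 44 of 57 in passages 2 to 6. Beyond it, 634355 was the next site covered in every library and carried no reference read. The next site mixed in at least 3 later libraries was 676398, after 118 covered sites of which 116 were alternative in every library.

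The alternative allele, the base that differs from CM01, held 75.1% of the reads over the 1424 sites with at least 10 reads in every library in passage 1. Its share was 62.7%, 66.7%, 63.6%, 64.4% and 62.8% in passages 2 to 6. These pooled values join sites of opposite kinds, so the sites were sorted by passage 1, a step taken after the values were seen. At 515 sites the alternative base held at least 90% of reads in all 6 libraries, so no second allele was seen. At 419 sites passage 1 had at least 90% alternative reads and a later library had less, so that the second allele carried the reference base. At 469 sites passage 1 had at most 10% alternative reads and a later library had at least 10%. A further 19 sites were between 10% and 90% alternative in passage 1, and 2 sites stayed under 10% in all 6 libraries. The allele held by passage 1 is called the first allele below, and the other one the second.

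Over these 888 sites the second allele held 0.516% of 116026 reads in passage 1. Its share was 32.8%, 9.83%, 66.8%, 45.6% and 73.7% in passages 2 to 6. The counting interval (95%, Wilson) was 73.5% to 74.0% in passage 6, and those of the other libraries were as narrow. The shares did not climb steadily with passage number, since passage 3 lay below passage 2 and passage 5 below passage 4. Of single sites, 814 of 888 were higher in passage 2 than in passage 3, 796 were higher in passage 4 than in passage 5, and 824 were higher in passage 6 than in passage 5. Fewer were higher in passage 5 than in passage 2 (711), in passage 6 than in passage 4 (678) and in passage 3 than in passage 1 (593). The full order of the pooled shares, ties allowed, was found at 553 sites (62.3%). Sites of 1 gene share reads, so they are not independent of each other.

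**Figure D2:**
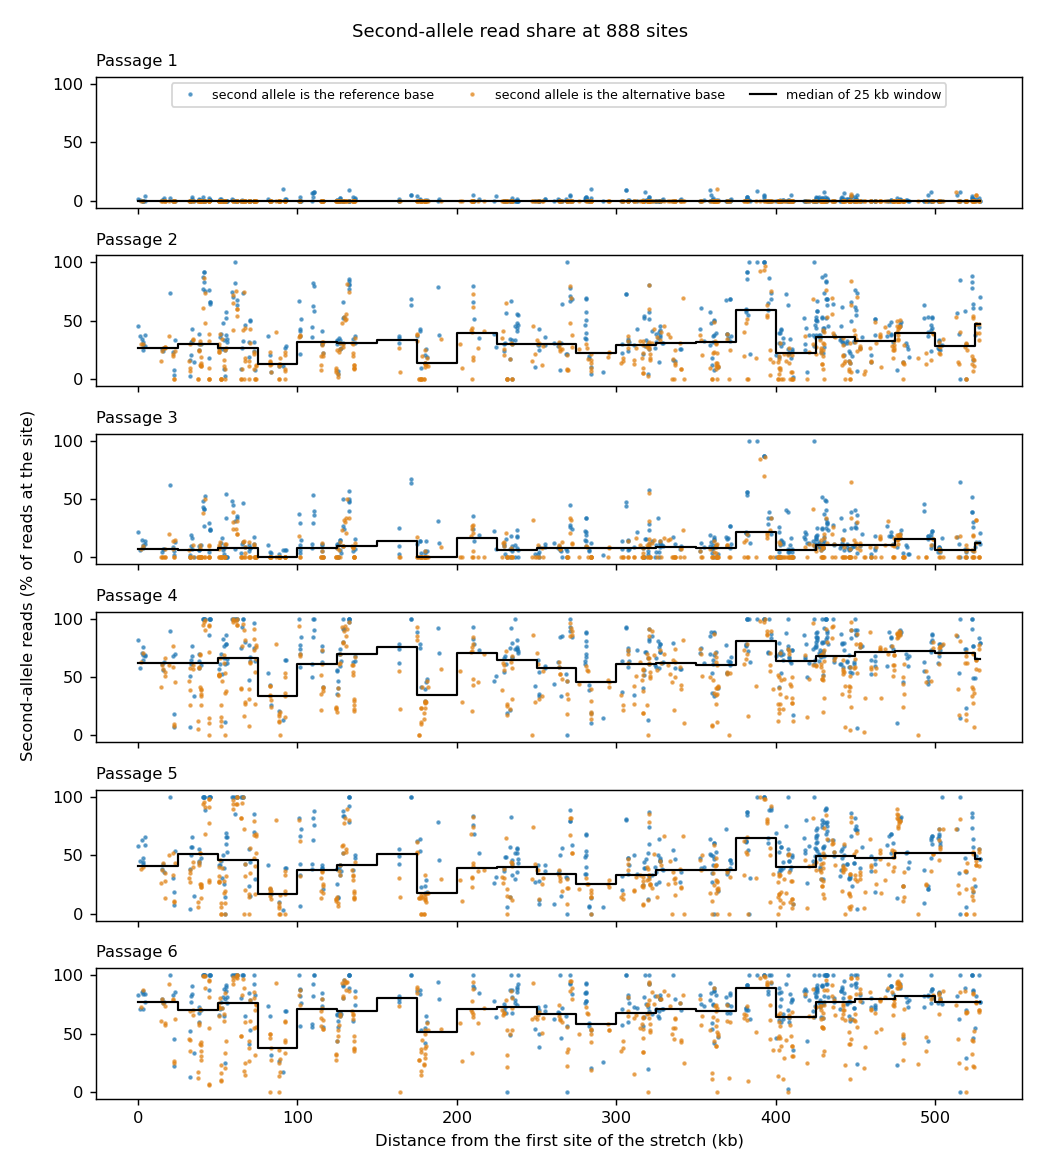
Second-allele reads in percent of all reads at each of 888 sites, against the distance in kb from the first site, with 1 panel per passage. Points are sites, coloured by which base the second allele carries, and the black steps are medians of 25 kb windows, which lie at 0 in passage 1 and between 37.5% and 88.9% in passage 6.

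Second-allele reads were found along the whole stretch. In windows of 25 kb the median second-allele share was 37.5% to 88.9% in passage 6 and 33.3% to 81.0% in passage 4. The lowest passage 6 window began 75 kb from the start, and the highest began 375 kb from it, where the ABC transporter gene CCM_06538 and the chitinase gene ChiA1 lie. With 1 site per gene, the 117 sites gave 33.5%, 10.1%, 67.9%, 45.3% and 73.2% in passages 2 to 6, close to the pooled shares. Exonic and other sites were also alike, with 74.1% and 72.5% in passage 6.

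The shares depended on which base the second allele carried. Where the second allele carried the reference base its shares were 40.6%, 13.5%, 72.9%, 51.5% and 79.0% in passages 2 to 6. Where it carried the alternative base they were lower, with 25.0%, 6.12%, 60.3%, 39.4% and 67.5%. At the 339 sites called mixed by the authors in all 5 later libraries this gap was small or turned round: 75.8% and 78.1% in passage 6, and 12.6% and 12.9% in passage 3, for reference and alternative. That choice drops every site without a listed second-allele read in a later library. In passage 3 these were 265 of the 469 alternative and 29 of the 419 reference sites, so the choice itself acts on the gap. In the whole table, an alternative read was listed in passage 1 at 2.37% of the sites coded as homozygous for the reference base and at none of the uncoded sites. A reference read was listed at 7.44% of the sites coded as homozygous for the alternative base. In passages 2 to 6 these shares were 9.09% to 13.1% for alternative reads and 7.46% to 8.35% for reference reads. Whether small shares of an alternative second allele were listed too low was not tested.

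A trace of the second allele was listed in passage 1. Of the 419 sites where it carries the reference base, 176 had a reference read in that library, and these reads were 0.848% of the total. Of the 469 sites where it carries the alternative base, 24 of 48193 reads were second-allele reads (0.0498%). Among the 515 sites alternative in all libraries, 51 had a reference read, which made 0.0955% of reads. Outside the stretch the same kind of site had 0.0859%. Where these reads came from was not tested.

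The other scaffolds with many mixed sites had like shares. Over sites mixed in at least 3 later libraries, the stretch had 32.3%, 9.54%, 65.7%, 44.6% and 72.9% of second-allele reads in passages 2 to 6. Scaffold NW_006271974.1 had 31.2%, 9.32%, 65.5%, 44.2% and 73.7%, and NW_006271975.1 had 33.4%, 10.6%, 61.8%, 42.7% and 73.2%.

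Coding effects were taken from the authors' annotation. Of the exonic single nucleotide variants in the stretch, 622 changed an amino acid and 1444 were synonymous. The nonsynonymous share was 30.1% (95% Wilson interval 28.2% to 32.1%), against 27.4% in the rest of the table. Among sites with at least 10 reads in every library it was 27.2%, against 23.7% elsewhere. Where the alleles differed, 165 of the changes were nonsynonymous and 490 synonymous (25.2%), and where both carried the alternative base the share was 30.1%.

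Amino acid differences between the alleles were found in 65 of the 104 genes that had a differing site with at least 10 reads in every library. In 37 further genes with sites inside, no site had that many reads. The most stood in CCM_06584, the cytidine deaminase-like gene at the end of the stretch, and in CCM_06557, a topoisomerase II-associated-like protein, with 18 each. These 2 genes had 34 and 33 such differing sites. CCM_06520, an ankyrin repeat protein, and CCM_06447, a homologue of Pat1, which promotes mRNA decapping in yeast, had 6 each. Counted over all sites, CCM_06584 held 90 sites, CCM_06557 held 76, the ABC transporter CCM_06538 held 63, CCM_06520 held 60, CCM_06447 held 44 and CCM_06540, 1 of 2 neighbouring models named as the DNA repair endonuclease XPF, held 39. The median gene had 12. None of these counts was scaled by gene length, and the first 2 genes are long models (587793 to 599196 and 509993 to 517085).

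Stop-gain, stop-loss or frameshift changes were annotated at 26 sites in 21 genes. Only 5 of these sites had at least 10 reads in every library, and 10 had under 30 reads over all 6 libraries together. Per 1000 exonic sites the stretch had 11.93 stop-gain or frameshift sites. The rest of the table had 9.38 and the rest of the same scaffold 12.98. Among sites with at least 10 reads in every library it was 4.70 in the stretch and 5.34 elsewhere. The stretch thus lay between or below these backgrounds, and the differences were not tested. At 15 of the 26 no library had a reference read, and 10 of these 15 had at least 1 read both in passage 1 and in a later library. Among the 15 were the insertions at 234168 in the major facilitator transporter CCM_06468 and at 499813 in CCM_06553, a protein mannosyltransferase that adds sugars to secreted proteins. CCM_06468 had 22 to 63 alternative reads there and CCM_06553 had 49 to 77. Further such sites stood in the C6 zinc finger protein CCM_06477, the helix-turn-helix protein CCM_06558, the carbohydrate esterase CCM_06441, the transporter CCM_06449 and the kinase-like protein CCM_06549.

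The chitinase gene ChiA1 (CCM_06535), whose product cuts chitin of the cell wall, had 4 sites annotated as frameshifts. At 451415 the 2-base deletion had 700 of 723 reads in passage 1, and 55, 72, 0, 48 and 56 alternative reads beside 595, 91, 315, 328 and 606 reference reads in passages 2 to 6. At 451418 a 1-base deletion had 700 alternative reads in passage 1 and 0 in passage 4. Each was annotated as a frameshift alone, and both had nearly the same reads in each library. If carried together, the 2-base and the 1-base deletion would keep the reading frame. Whether they lie on the same molecules was not tested, so the passage 1 allele is not shown to be frameshifted here. At 452650 the reference base had all 109 reads in passage 1, and the 1-base deletion held 23 of 24 in passage 2 and all 9 in passage 6. In passage 3 it had 15 reads beside 1 reference read, though the gene's second-allele share there was 33.1%, and passage 5 had 0 reads. At 452620 a 1-base deletion had 0, 0, 8, 0 and 6 reads beside 61, 56, 40, 63 and 56 reference reads in passages 2 to 6. Whether the second allele is frameshifted was not tested either.

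Other sites of this kind rested on few reads. The stop-loss in Sla2 (CCM_06521) at 411475 had 5 alternative reads in passage 1 and was mixed later, with 9 reference and 3 alternative reads in passage 4. An insertion in CCM_06584 at 595850 was reference in passage 1 (9 reads) and had 6 of 10 alternative reads in passage 3. Its 24, 15 and 14 reads in passages 4, 5 and 6 were all reference. For the importin-beta gene CCM_06502, CCM_06494, CCM_06542, the kinase-like gene CCM_06510 and the XPF gene CCM_06540, single sites had 0 to 27 reads per library.

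At the mating-type locus the flanking genes were mixed, while the few reads of MAT1-1-1 were nearly all of the alternative base. Sla2, at 408101 to 411477, had second-allele shares of 19.1%, 6.44%, 51.3%, 28.5% and 63.5% in passages 2 to 6. The DNA lyase CCM_06524, at 421423 to 423635, had 36.4%, 3.95%, 67.6%, 44.6% and 72.1%, and the cytochrome c oxidase subunit CCM_06525 beside it had 32.9%, 9.08%, 61.7%, 39.9% and 73.9%. Between them MAT1-1-1 (CCM_06523, 416720 to 418199), which encodes an alpha-box transcription factor, had 4 sites with 37, 20, 34, 15, 23 and 13 alternative reads in passages 1 to 6 and 1 reference read in all, in passage 5. Of these sites 417379 had 9 to 26 reads per library and the other 3 had 0 to 7. Since 515 of the 1424 covered sites of the stretch were alternative in all libraries as well, these sites do not show whether a second allele was present. The level of MAT1-1-1 was 6.66, 4.01, 5.07, 2.32, 3.38 and 2.63 FPKM, from 89, 76, 76, 41, 57 and 49 counts. Whether this level is related to the allele shares was not tested. MAT1-1-2 (CCM_09679) had at most 0.2 FPKM, and its model has no variant site inside.

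The genes of the stretch differed in their second-allele share. Of 161 genes, 104 had a site where the alleles differed, and 92 had at least 50 reads at such sites in each later library. Among these, 23 lay above the stretch as a whole in all 5 later libraries and 35 below it. With their counting intervals clear of the pooled share, 16 lay above and 20 below in all 5. Set against the share of the same kinds of site (second allele reference or alternative), a comparison added after the values were seen, 15 lay above and 22 below with their intervals, and 14 and 16 of these were the same genes. The middle 50% of genes ran from 63.5% to 82.5% in passage 6 and from 23.5% to 40.2% in passage 2.

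By the mean deviation from the pooled share over passages 2 to 6, the highest gene was the ABC transporter CCM_06538 (457978 to 462760), a membrane pump of a family that exports compounds with ATP. Its second-allele share was 2.72% in passage 1 and 98.0%, 85.7%, 99.3%, 99.5% and 98.9% in passages 2 to 6. Its level was 40.8, 8.36, 3.61, 64.0, 22.6 and 71.2 FPKM in passages 1 to 6. Multiplying level by share gave 0.103 to 0.760 FPKM of first-allele message in later passages, against 39.6 FPKM in passage 1. The second allele's part was 8.20, 3.09, 63.5, 22.4 and 70.4 FPKM in passages 2 to 6. Such products take the reads at the differing sites as standing for the whole gene, and the number of nuclei with an allele and the RNA made per nucleus cannot be told apart. At the 4 sites where the second allele carries the reference base, its share was 100% in passages 2, 4, 5 and 6. The unannotated transcript TCONS_00010745, which ends beside this gene at 457756, had 53.2, 18.3, 28.1, 100.6, 35.2 and 129.5 FPKM, again lowest in passages 2 and 3 and highest in passages 4 and 6.

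The ankyrin repeat gene CCM_06435 had second-allele shares of 82.4%, 36.2%, 98.6%, 96.4% and 99.5% in passages 2 to 6. Its level was 17.7, 22.2, 7.35, 37.4, 24.7 and 131.5 FPKM, highest in passage 6. In CCM_06442, named for a bactericidal permeability-increasing protein domain, the shares were 69.0%, 26.2%, 98.8%, 96.6% and 99.2%. Its first-allele part was 0.232 to 4.90 FPKM in later passages, against 10.7 FPKM in passage 1. The gene CCM_06467, without a named product, had 82.4%, 48.5%, 99.3%, 98.9% and 97.2%, but with at most 1.46 FPKM, and its sites may share reads with an overlapping transcript.

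The membrane transporter CCM_06583 (585168 to 586592) had 73.0%, 50.3%, 86.3%, 85.2% and 89.1% second-allele reads in passages 2 to 6. Its level was 285.8, 308.9, 543.6, 390.9 and 411.6 FPKM in those passages, against 91.0 FPKM in passage 1. The first allele's part was 44.8 to 153.6 FPKM in passages 2 to 6, against 86.6 FPKM in passage 1, while that of the second was 155.3 to 469.4 FPKM in the later libraries. For ChiA1 the shares were 67.6%, 33.1%, 81.3%, 62.9% and 77.5%. Its first-allele part was 20.4 to 74.8 FPKM in passages 2 to 6, against 1478 FPKM in passage 1. Second-allele ChiA1 message stood at 37.0 to 147.6 FPKM in passages 2 to 6, also under the passage 1 level of the first allele. In passage 1 the second allele held only 1.04% of the reads (15.6 FPKM), so its own level there is little guide.

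**Figure D3:**
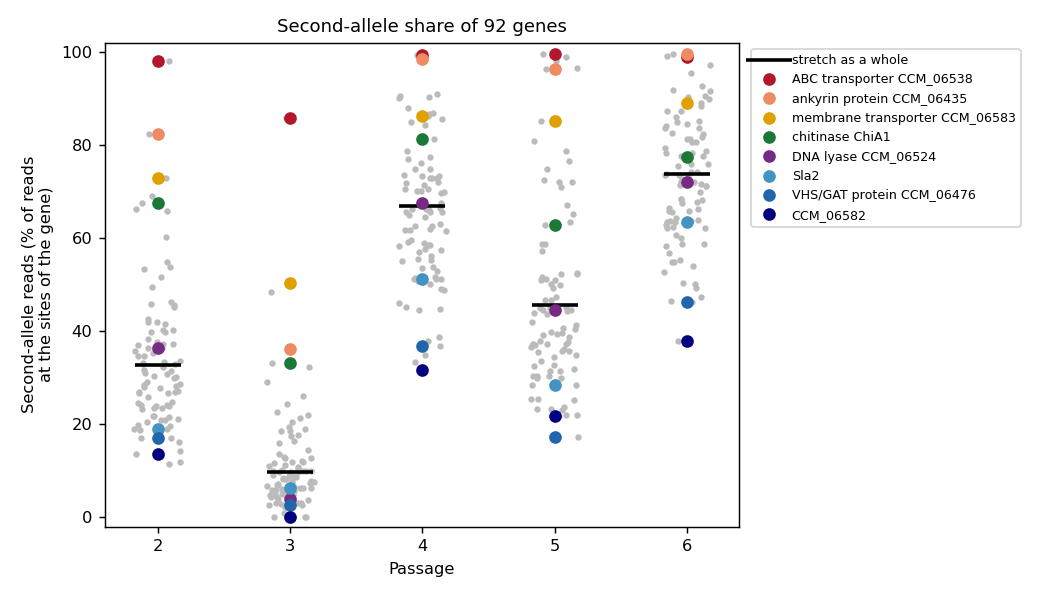
Second-allele reads in percent of the reads at the differing sites of each gene, for passages 2 to 6. Grey points are the 92 genes, coloured points are named genes and black bars the stretch as a whole; the ABC transporter CCM_06538 stands at 85.7% to 99.5%, and CCM_06582 at 0% to 37.8%.

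By the same mean deviation the lowest were CCM_06582, a gene beside the membrane transporter, and CCM_06476, a VHS/GAT domain protein of a family that sorts cargo at the Golgi. CCM_06582 had 13.7%, 0%, 31.7%, 21.7% and 37.8% in passages 2 to 6, at 2 sites where the second allele carries the alternative base. CCM_06476 had 17.2%, 2.73%, 36.9%, 17.3% and 46.4%. Its level was 40.8, 52.3, 49.3, 47.8 and 37.4 FPKM in those passages, against 120.3 FPKM in passage 1. The THO complex subunit CCM_06511, which takes part in mRNA export, had 19.7%, 4.85%, 35.0%, 17.6% and 46.5%, and the Pat1 homologue CCM_06447 had 16.2%, 3.05%, 38.0%, 22.0% and 47.3%. The mitochondrial ribosomal protein S35 gene CCM_06569 had 14.3%, 0.990%, 44.7%, 22.0% and 49.2%. In single libraries other genes were lower, as CCM_06446 with 11.6% in passage 2. At the sites where the second allele carries the reference base, passage 6 shares were 55.1% in CCM_06476, 61.9% in CCM_06511, 59.9% in CCM_06447 and 46.4% in CCM_06569, beside 79.0% over all such sites. Where it carries the alternative base they were 40.9%, 36.4%, 41.1% and 49.7% in the same genes, beside 67.5%. All 4 genes thus lay below the stretch at both kinds of site in passage 6.

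The WSC domain gene CCM_06443, of a family that senses cell wall stress in yeast, had a different order of libraries from the stretch as a whole. Its second-allele share was 13.6% and 5.03% in passages 2 and 3, below the stretch, and 84.3%, 98.0% and 88.3% in passages 4, 5 and 6, above it. It was highest in passage 5, at a level of 70.1 FPKM, against 381.9 FPKM in passage 1.

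**Figure D4:**
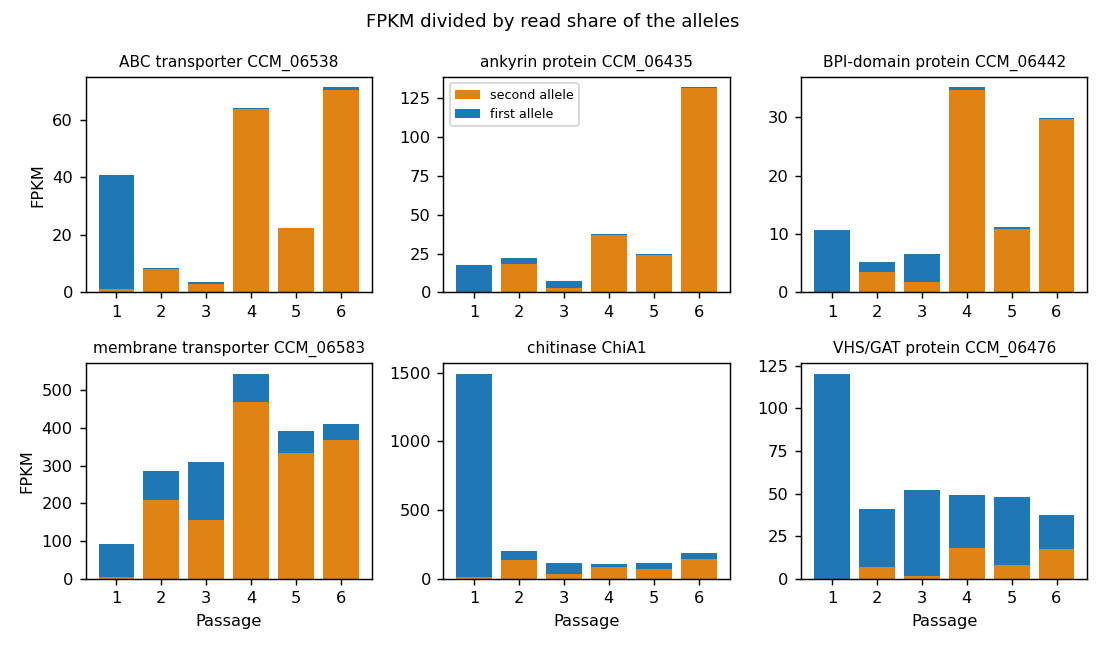
FPKM of 6 genes in each passage, divided into second-allele and first-allele parts by the read share at the differing sites; bars are single libraries without error. The ABC transporter shows at most 0.760 FPKM of first-allele message in passages 2 to 6, against 39.6 FPKM in passage 1.

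Expression of the genes was then compared between later passages and passage 1. Of the 161 genes, 129 had a mean of at least 1 FPKM, and 6 were listed at 0 in all libraries. In log2 CPM scaled by TMM, 13 of 129 genes were at least 2-fold higher in passage 2 than in passage 1 (background 9.96% of 8483 genes) and 24 were at least 2-fold lower (background 10.9%). For passage 3 the counts were 13 higher (12.6%) and 26 lower (13.4%), for passage 4 they were 13 (10.6%) and 19 (9.97%), for passage 5 they were 10 (12%) and 25 (13.4%), and for passage 6 they were 19 (12.1%) and 21 (10.8%), with the background in brackets. The stretch thus had 14.7% to 20.2% of genes at least 2-fold lower, and medians of -0.22 to -0.00 log2, beside -0.01 to 0.04 over all genes. With log2(FPKM + 1) in place of scaled counts 14, 15, 9, 15 and 13 of the 129 genes were at least 2-fold lower, and 13, 14, 18, 14 and 21 were higher. On that scale 542, 659, 424, 713 and 484 of all 8483 genes were lower, and 974, 1434, 1177, 1159 and 1267 were higher. Single libraries were compared, so these counts have no test.

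The authors' deposited tables listed 36, 34, 30, 33 and 40 genes of the stretch as different from passage 1 in passages 2 to 6. That was 22.4%, 21.1%, 18.6%, 20.5% and 24.8% of the 161 genes, beside 18.2%, 24.1%, 19.3%, 21.9% and 21.1% of all genes.

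No gene of the stretch passed the trend over passages 1 to 6 (edgeR quasi-likelihood test, Benjamini-Hochberg adjusted p under 0.05, 134 genes of the stretch tested, background 0% of 8758). At an unadjusted p under 0.05 there were 27 genes of the stretch (20.1%), beside 1129 over all genes (12.9%). DESeq2 called 0 genes of the stretch and 56 of all genes.

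Passages 2 to 6 together were set against passage 1, a comparison taken up after the libraries had been seen, in which the lone library is assumed to vary like the other 5. Of 136 tested genes of the stretch, 30 passed (22.1%), beside a background of 23.6% of 8894 genes, so the share was close to that of the genome. Among them 7 rose (background 9.4%) and 23 fell (background 14.2%). With limma on log2(FPKM + 1) the split was 11 higher and 13 lower of 155 tested genes of the stretch. Over all 9746 genes it was 1710 higher and 735 lower. Passage and library cannot be told apart in passage 1. Of the 30 calls, 16 held under every alternative that gave a value (4 higher, 12 lower) and 14 were lost under at least 1.

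**Figure D5:**
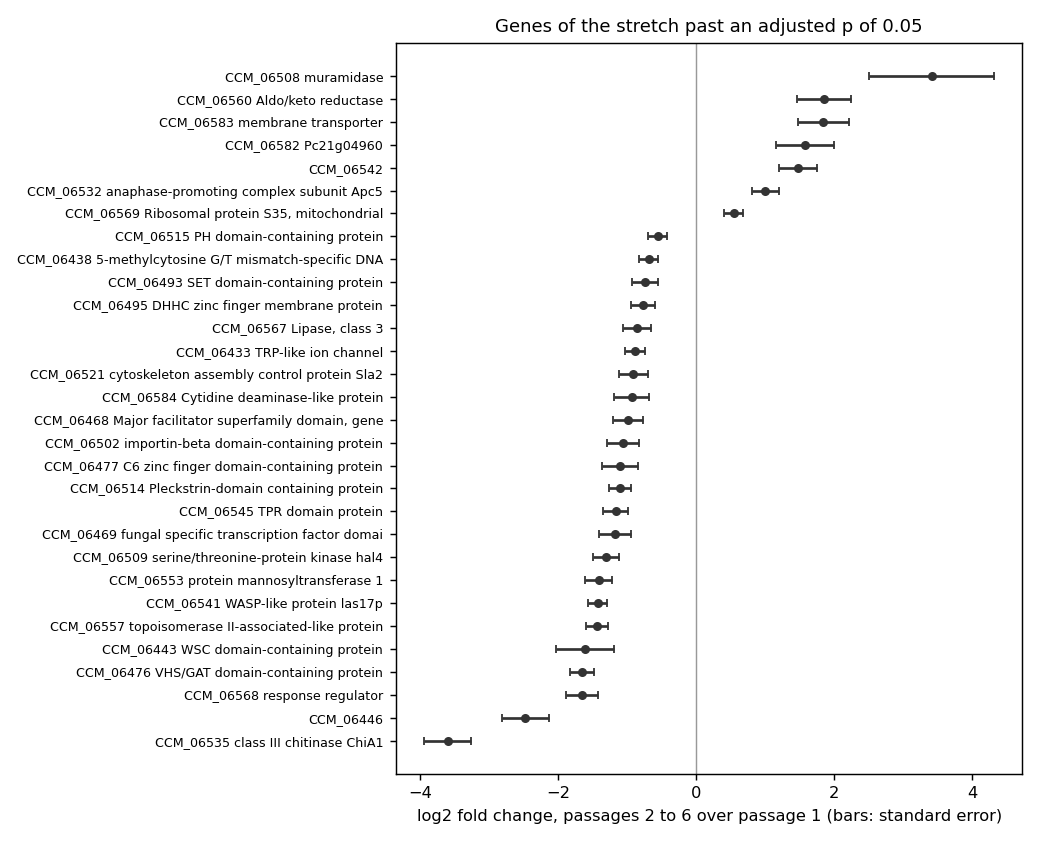
log2 fold change of passages 2 to 6 over passage 1 for the 30 genes of the stretch past an adjusted p of 0.05 in edgeR's quasi-likelihood test. Points are estimates, bars are standard errors; the chitinase ChiA1 stands lowest at -3.59 and the muramidase CCM_06508 highest at 3.41.

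ChiA1 had 203.1, 111.8, 109.1, 116.0 and 190.4 FPKM in passages 2 to 6, against 1493 FPKM in passage 1. It fell by 3.59 log2 (SE 0.340, adjusted p = 0.00336, edgeR). The gene for the WASP-like protein Las17 (CCM_06541), which activates branched actin in yeast, had 29.9 to 34.0 FPKM in later passages, against 73.7 FPKM in passage 1, and fell by 1.42 log2 (SE 0.134, adjusted p = 0.00336, edgeR). CCM_06476 fell by 1.65 log2 (SE 0.176, adjusted p = 0.00345, edgeR), and the pleckstrin-domain gene CCM_06514 fell by 1.10 log2. Sla2, of the same actin pathway as Las17, fell by 0.91 log2 (adjusted p = 0.0223, edgeR), a call lost when the trend with gene length was taken out (-0.52, adjusted p = 0.0967) and in limma on log2(FPKM + 1) (-0.67, adjusted p = 0.0772).

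The response regulator CCM_06568, of the family that takes signals from sensor kinases, had 152.4 to 246.8 FPKM in passages 2 to 6, against 513.0 FPKM in passage 1 (-1.66 log2, SE 0.234, adjusted p = 0.00569, edgeR). The kinase gene hal4 (CCM_06509), which in yeast regulates potassium uptake, fell by 1.31 log2, the mannosyltransferase CCM_06553 fell by 1.41 log2 and CCM_06557 fell by 1.44 log2 (adjusted p = 0.00621, 0.00544 and 0.00350, edgeR). CCM_06584 fell by 0.93 log2 (adjusted p = 0.0372, edgeR), but by 0.16 after correction for gene length (adjusted p = 0.746). The call was also lost in limma on log2(FPKM + 1) (adjusted p = 0.103) and without passage 2, 3, 4 or 5 in turn (adjusted p = 0.0563 to 0.0754).

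Of the 7 genes that rose, CCM_06542 has no named product and rose by 1.48 log2 (adjusted p = 0.0117, edgeR). The membrane transporter CCM_06583 rose by 1.84 log2 (SE 0.375, adjusted p = 0.0161, edgeR). The gene for Apc5 (CCM_06532), a subunit of the ubiquitin ligase that drives cells out of mitosis, had 193.7 to 254.4 FPKM in passages 2 to 6, against 96.8 FPKM in passage 1, and rose by 1.00 log2 (SE 0.193, adjusted p = 0.0135, edgeR). The aldo/keto reductase CCM_06560 rose by 1.85 log2 (adjusted p = 0.0178, edgeR), with 9.05 to 14.7 FPKM later, against 2.65 FPKM in passage 1. The muramidase CCM_06508, of a family that cuts bacterial cell walls, rose by 3.41 log2 from a low level (0.5 FPKM in passage 1, adjusted p = 0.0351, edgeR). CCM_06569 rose by 0.55 and CCM_06582 by 1.58 log2 (adjusted p = 0.0321 and 0.0361). The calls of CCM_06508, CCM_06569 and CCM_06582 were lost without passage 3 or passage 4 (adjusted p = 0.0567 to 0.0683), and those of CCM_06569 and CCM_06582 also without passage 2 (0.0504 and 0.0518). CCM_06569 was lost without passage 5 too (0.0665). After correction for gene length CCM_06508 had 3.05 log2 (adjusted p = 0.0631) and CCM_06582 had 1.00 (adjusted p = 0.134).

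Calls were also counted by second-allele share, beside the 23.6% of all genes that passed. Genes with a share had at least 50 reads at differing sites in each later library, so that background is not one of genes with like read numbers. Of the 16 genes whose interval lay above the pooled share in all later libraries, 3 passed, 1 higher and 2 lower, and of the 20 below it 7 passed, 2 higher and 5 lower. Of the other 56 genes with a share 18 passed, 3 higher and 15 lower, and of 44 tested genes without one 2 passed. The ABC transporter CCM_06538 stood at -0.52 log2 (SE 1.31, adjusted p = 0.801, edgeR), and its level in passages 2 to 6 spanned 3.61 to 71.2 FPKM. CCM_06435 stood at 1.09 (SE 1.37, adjusted p = 0.589) and MAT1-1-1 at -1.18 (SE 0.399, adjusted p = 0.0709).

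The genes were grouped by product text, and the counts stand beside 9.4% of all genes higher and 14.2% lower. The stretch held 11 transporter genes, all tested, of which CCM_06583 rose and CCM_06468 fell. Of 8 transcription factor and zinc finger genes 3 fell, namely CCM_06469, CCM_06477 and the DHHC protein CCM_06495, and none rose (median -0.53 log2). DHHC proteins add lipid to other proteins, and CCM_06495 entered by the words zinc finger. Of 4 tested cell wall genes 2 fell, ChiA1 and CCM_06438, which is a DNA glycosylase that entered by its name. In limma on log2(FPKM + 1) the calls of CCM_06468, CCM_06477 and CCM_06495 were lost (adjusted p = 0.0701, 0.0821 and 0.0853). After correction for gene length those of CCM_06477 and CCM_06438 were lost (adjusted p = 0.064 and 0.0916), and that of CCM_06477 also without passage 3 (adjusted p = 0.0502). The glucanase-like CCM_06464 had -0.65 log2 (adjusted p = 0.0936).

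Of 7 genes of ribosome and translation, CCM_06569 rose and none fell, and it was also the call among 3 mitochondrial genes. The ribosomal protein genes CCM_06518 (S9) and CCM_06519 (L21) had the highest and second highest mean levels of the stretch among genes with a named product, 854.0 and 553.5 FPKM, and log2 differences of -0.07 and -0.11. Next was the cytochrome c oxidase gene CCM_06525, with a mean of 464.8 FPKM and a log2 difference of 0.38. The sulfate adenylyltransferase gene CCM_06434, of sulfur uptake, had 253.3 FPKM and -0.05. Of 7 dehydrogenase, reductase and oxidase genes 1 rose, of 3 kinase and phosphatase genes 1 fell, and none of the 3 protease, 3 chromatin and DNA repair or 2 sorting nexin genes passed. The peptidase genes CCM_06482 and CCM_06546 had -1.74 and -1.96 log2 (adjusted p = 0.0929 and 0.143), with their lowest levels in passages 2, 3 and 5. No gene of the stretch had a product naming heterokaryon incompatibility, a cytochrome P450 or a transposon.

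At the ends, CCM_06423 and CCM_06424 had log2 differences of 0.52 and 0.00 (adjusted p = 0.181 and 0.998, edgeR). Of 18 unannotated transcripts that overlap the stretch, TCONS_00011394 had the highest mean, 463.4 FPKM. The 4 neighbouring transcripts TCONS_00011415 to TCONS_00011418, between 222736 and 231907 on the minus strand, had 0 to 0.95 FPKM in passages 2 to 6, against 1.49 to 2.51 FPKM in passage 1.

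At the urea transporter gene CCM_06529 a splice-site variant at 433039 had only alternative reads, 82, 37, 42, 14, 28 and 5 in passages 1 to 6. The annotated junction from 433198 to 433258 of that gene had 502, 476, 287, 191, 204 and 170 reads, and an unannotated one from 433010 to 433119, which spans the variant, had 414, 460, 266, 251, 237 and 303. The gene had -0.62 log2 (adjusted p = 0.0614, edgeR).

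The authors' list of RNA editing events, which they based on single nucleotide variants, held many of the same sites. Of 11304 listed events, 3230 (28.6%) fell in the stretch, at 971 positions. Passage 1 had 19 of 208, passages 2 and 3 had 740 of 2511 and 391 of 1401, and passages 4, 5 and 6 had 717 of 2481, 732 of 2473 and 631 of 2230. All 3230 were sites of the variant table, and each listed frequency equalled the alternative read share of that library within 0.0001. The genotype code was mixed in that library for 3224 of them. A stretch chosen for mixed sites therefore had to hold many listed events, and the match is no independent result. In the whole table, 771 of the 2806 covered sites mixed in at least 3 later libraries lay in the stretch. Transitions made up 71.4% of distinct events in the stretch and 69.3% outside it.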

How the data were processed

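RNA libraries of 6 passages, 1 each, were analysed. Per the file headers, the authors deposited expected counts and FPKM per gene, and, in the submitters' processing notes, named FastQC, Bowtie, TopHat2, Cufflinks and edgeR. The variant caller, with all versions and the use of strand, was not given in the sources used here. A variant table deposited by the authors holds a quality score per site and, per library, a genotype code and the reads of each allele. Further deposited tables give editing frequency as a fraction, counts per splice junction, and log2 ratios of FPKM with adjusted p-values (1 library against 1). Per-sample values in 76 other columns were left unused. Scaffold positions are those of the files; the 161 locus tags were all found in RefSeq's gene table of assembly CmilitarisCM01_v01, and all 2333 sites annotated inside a gene lie in that gene's RefSeq span.

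Shares used sites with at least 10 reads in every library. Intervals are 95% Wilson intervals and cover counting error only, since amplified reads are not independent molecules. Counts were rounded (36 to 50 genes per library were not whole) and tested in edgeR 4.0.16 (quasi-likelihood, TMM, edgeR's expression filter, two-sided) over all genes, after a check on simulated counts. DESeq2 1.42.0 and limma 3.58.1 were alternatives. Ratios between single libraries used log2 CPM with a prior count of 1 over genes whose mean reached 1 FPKM. FPKM are printed as deposited, not scaled by TMM. The stretch, its lists and the comparison of passages 2 to 6 with passage 1 were chosen with earlier results of these data known. Genes were named by a rule: up to 15 with a stop or frameshift change, the 6 with most sites, the 8 most expressed with a named product, up to 8 per direction past the test, the 5 with the highest and 5 with the lowest allele share, those at both ends, and up to 3 per product class, by product text. Its part on shares asked for libraries with 50% of sites mixed, which 0 libraries reached, so second-allele shares were used, and the mating-type, WSC, unannotated and urea transporter genes were chosen after their values were seen.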

Additional observations from a re-analysis of the deposited data

How the results depend on the processing

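Of the alternatives, 109 values for the main results stayed within their error or within 1.5 times the count, and 62 did not. The pooled alternative read share depended most on how sites were weighted. In passages 1 to 6 it was 99.9%, 66.7%, 88.9%, 62.7%, 61.6% and 70.0% as the median over sites, and 90.03%, 75.8%, 78.7%, 71.3%, 73.2% and 69.6% with 1 site per gene. With at least 30 reads it was 76.8%, 63.3%, 67.7%, 64.0%, 65.0% and 63.2%. With single nucleotide variants only it was 63.3%, 67.4%, 63.8%, 64.9% and 63.3% in passages 2 to 6, it was 75.3% in passage 1 at a quality score of at least 100, and 62.5% in passage 6 with a minimum of 1 read. The median over genes was 100%, 66.7%, 90.1%, 63.6% and 69.5% in passages 1, 2, 3, 4 and 6 when each gene was represented by its median site, and 76.3% and 61.8% in passages 1 and 6 with single nucleotide variants only.

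Mixed sites in passages 1 to 6 were 3.05%, 51.7%, 36.6%, 49.2%, 50.9% and 45.6% of covered sites when each allele needed 5% of reads, and 0.230%, 37.1%, 12.4%, 37.0%, 38.0% and 29.98% when it needed 20%. With a minimum of 1 read they were 35.3%, 19.95%, 34.9%, 35.9% and 32.4% in passages 2 to 6. With at least 30 reads they were 0.535%, 51.1%, 24.1% and 51.0% in passages 1, 2, 3 and 5. The nonsynonymous share was 27.2% at sites with at least 10 reads in every library. Passage 1 had the fewest mixed sites and passage 3 the fewest of the later libraries under each of these settings. The cause of these shifts was not tested.

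With log2(FPKM + 1), 14, 15, 9, 15 and 13 of 129 genes of the stretch were at least 2-fold lower in passages 2 to 6. Over all 8483 genes these counts were 542, 659, 424, 713 and 484. The comparison of those passages with passage 1 called 11 of 155 genes higher and 13 lower, beside 1710 and 735 of all 9746. On that scale the median of all genes lay 0.22, 0.26, 0.27, 0.19 and 0.25 log2 above passage 1, and that of the stretch 0.13, 0.06, 0.26, 0.02 and 0.14. With all genes that had a count, 23 of 155 genes of the stretch were at least 2-fold higher in passage 3, beside 1465 of all 9746. Leaving out passages 2 to 6 in turn gave 25 to 34 calls in the stretch, 5 to 8 higher and 19 to 26 lower. Over all genes it gave 1386 to 2537 calls, 468 to 1052 higher and 918 to 1485 lower. The trend had 0 calls in the stretch without any 1 library. No paired analysis was possible because each passage has a single library. Sites with few reads limit what can be said of small shares.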
